A study of Mus musculus with 8 samples.

Results

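The 10 genes of fatty acid uptake and beta-oxidation followed here in SCA17 knock-in mice (KI) and their wild-type counterparts (WT) were Cd36, Fabp3, Cpt1b, Cpt2, Acadvl, Acadl, Acadm, Hadha, Pdk4 and Ucp3. A gene was read from a probe set that the array platform annotates with that symbol alone, taking the brightest over the 8 arrays, and for Fabp3 also its other probe set. This gave 9 of the 10 genes, with 10 probe sets, out of 19938 genes with such a probe set and 35556 probe sets on the array. The only probe set of Cpt1b carries 2 symbols, so no value is given for it. In the RefSeq table of GRCm38.p6, Cd36 and Hadha lie on chromosome 5, Fabp3 and Cpt2 on 4, Acadl on 1, Acadm on 3, Pdk4 on 6, Ucp3 on 7 and Acadvl on 11. Total RNA from the tibialis anterior (TA) muscle and the cerebellum of mice aged 3 months was hybridised to Affymetrix Mouse Gene 1.0 ST arrays, 1 sample per array, and each value is a log2 expression level. The groups were KI muscle (arrays 94 and 97), WT muscle (arrays 95 and 96), KI cerebellum (arrays 94 and 97) and WT cerebellum (arrays 95 and 96), with 2 arrays each. Spinocerebellar ataxia 17 is caused by an expanded polyglutamine tract in the TATA-binding protein, Tbp. The study text names 3 mice per genotype. The repeat length, the promoter that drives the allele, the strain, the sex and whether an array holds RNA of a single animal are not stated in the sources used here.

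Long-chain fatty acids enter muscle fibres with the help of CD36 and are carried through the cytosol by fatty acid binding proteins. They are activated to acyl-CoA, passed into mitochondria by the carnitine shuttle and shortened in turns of oxidation, hydration, oxidation and thiolysis, which yield acetyl-CoA and reduced cofactors. Muscle turns between fat and glucose as fuel: pyruvate dehydrogenase kinases, Pdk4 among them, switch off pyruvate dehydrogenase when fat is burned, while neurons rely mainly on glucose.

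Arrays of the same group correlated at 0.977 to 0.989. The highest correlation with an array of the other genotype was 0.973 to 0.989, so the ranges within and between genotypes overlapped. Tbp, the gene carrying the knock-in, was 6.80 and 6.94 in KI muscle, against 6.70 and 6.81 in WT muscle, and 7.68 and 7.52 in KI cerebellum, against 7.85 and 7.71 in WT cerebellum. The genotypes did not differ past the threshold for Tbp in either tissue (limma, adjusted p = 0.634 in muscle and 0.998 in cerebellum), and an expression level does not read the length of the repeat. The threshold throughout was an adjusted p (Benjamini-Hochberg over all tested genes) under 0.05 from limma, and a gene past it is said to be called. The tissues were read by their markers: the summed linear level of 9 skeletal muscle genes was 23719 to 25123 in KI muscle and 27705 to 29449 in WT muscle, against 402 to 449 in KI cerebellum and 409 to 456 in WT cerebellum. The sum of the 8 cerebellar neuron genes on the array was 9070 to 10587 in KI cerebellum and 12057 to 13578 in WT cerebellum, against 250 to 261 in KI muscle and 270 to 294 in WT muscle.

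The first comparison asked whether the fatty acid genes differ between KI and WT muscle. None of the 9 measured genes was called, where 3.55% of the 13933 genes tested in muscle were. Hadha and Acadl had the smallest p-values, each with a KI mean 1.19-fold above the WT mean, and neither passed. Hadha alone of the 9 had an unadjusted p under 0.05, where 20.3% of all tested genes did. Of the 9 differences, 7 were above 0, against 55.0% of all tested genes, and the median was 0.05 on the log2 scale, against 0.03 over all tested genes. In 4 of the 9 the KI arrays lay above the WT arrays with no overlap (Cpt2, Acadl, Acadm and Hadha), against 30.3% of all tested genes.

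**Figure D1:**
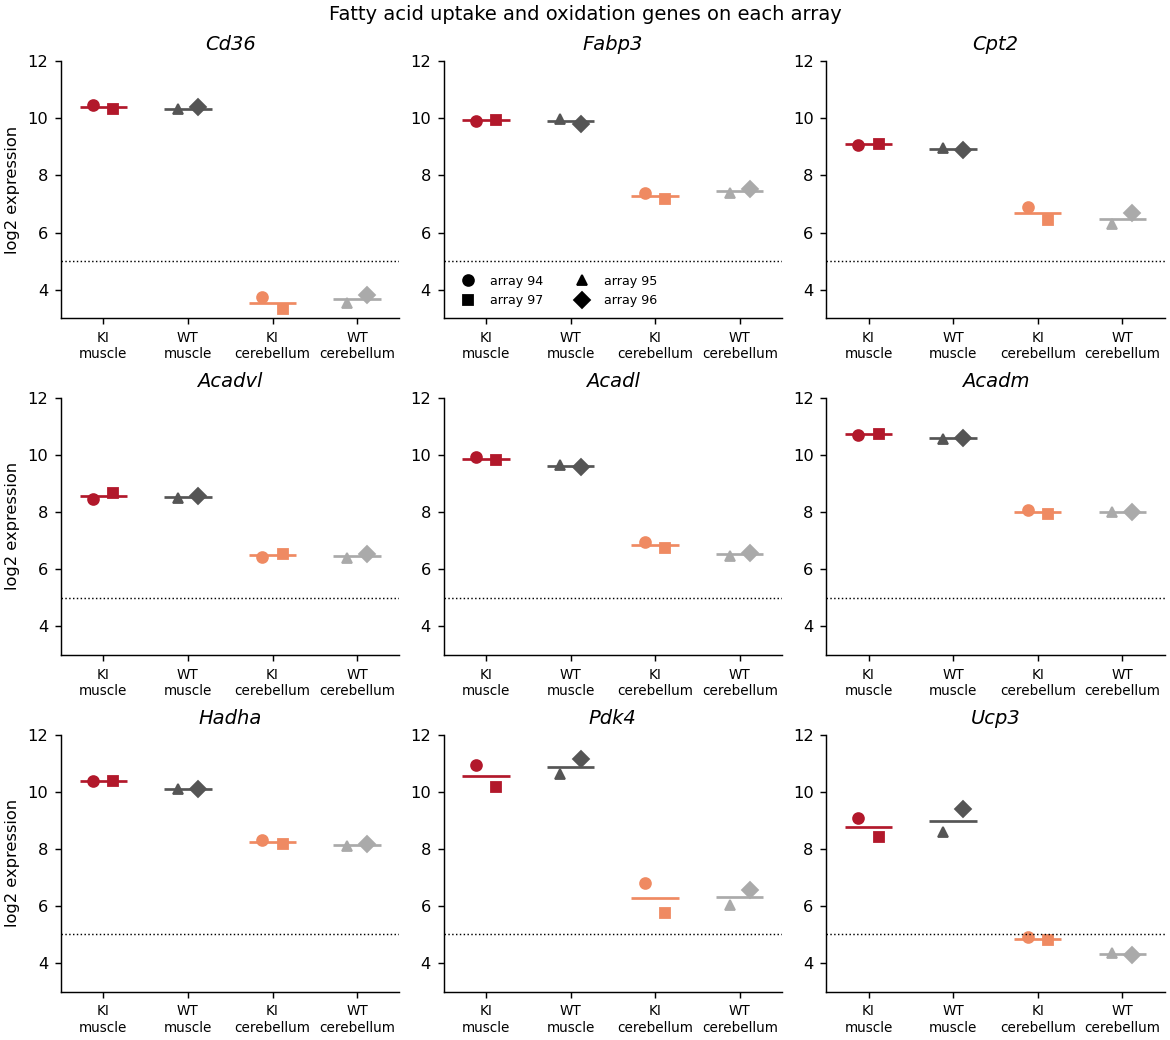
Log2 expression level of each fatty acid gene (the brightest probe set) on each of the 8 arrays; points are single arrays, with KI left of WT and muscle left of cerebellum, horizontal bars are group means and the dotted line is the mean 40th percentile of the arrays. Replicates lie close together for Acadm and Hadha in both tissues, while Pdk4 and Ucp3 spread widely within each muscle genotype.

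The uptake and binding genes came first in the route. Cd36, the membrane transporter of long-chain fatty acids, was 10.46 and 10.34 in KI muscle, against 10.31 and 10.38 in WT muscle. The 2 genotypes overlapped, and the difference was 0.05 ± 0.15 (SE, n = 2 per group; adjusted p = 0.889, limma), with a 95% interval of -0.29 to 0.39. Fabp3, the cytosolic fatty acid carrier of heart and skeletal muscle, was 9.91 and 9.94 in KI muscle, against 9.98 and 9.81 in WT muscle. The KI arrays lay between the WT arrays, and the difference was 0.03 ± 0.12 (SE; adjusted p = 0.918, limma). Its other probe set read 9.78 and 9.82 in KI muscle, against 9.86 and 9.69 in WT muscle, with the arrays in the same order. The 2 probe sets of Fabp3 differed by -0.04 to 0.14 over the 8 arrays.

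Cpt2 encodes the inner-membrane carnitine palmitoyltransferase, which rebuilds acyl-CoA inside the mitochondrion. Its level was 9.07 and 9.11 in KI muscle, against 8.97 and 8.90 in WT muscle. The KI arrays were the higher pair, by a mean of 0.15 ± 0.17 (SE; adjusted p = 0.664, limma). The SE is wider than these 4 muscle values alone would give, since 1 residual variance per gene was fitted over all 8 arrays and the cerebellum arrays of Cpt2 spread more.

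The acyl-CoA dehydrogenases carry out the first oxidation of each turn and differ in the chain length they accept. Acadvl, for very long chains, was 8.46 and 8.68 in KI muscle, against 8.49 and 8.55 in WT muscle, and the KI arrays lay on either side of the WT arrays (difference 0.05 ± 0.12, SE; adjusted p = 0.854, limma). Acadl, for long chains, was 9.92 and 9.81 in KI muscle, against 9.66 and 9.58 in WT muscle. Both KI arrays of Acadl were the higher, by 0.25 ± 0.12 (SE), with an interval of -0.02 to 0.51 and an adjusted p of 0.276 (limma). Acadm, for medium chains, was 10.70 and 10.74 in KI muscle, against 10.57 and 10.61 in WT muscle. The Acadm groups did not overlap either, but the difference was small (0.13 ± 0.10, SE; adjusted p = 0.526, limma).

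Hadha encodes the alpha subunit of the mitochondrial trifunctional protein, which hydrates and oxidises long-chain acyl-CoA again. It was 10.36 on both KI muscle arrays, against 10.11 on both WT muscle arrays. With 2 arrays per group that agreement says little of the spread, and the fitted difference was 0.25 ± 0.10 (SE). Its interval of 0.02 to 0.48 lay above 0, and its adjusted p over all genes was 0.217 (limma). Hadhb, the beta subunit with the thiolase, averaged 10.14 ± 0.06 in KI muscle and 9.97 ± 0.04 in WT muscle (SD, n = 2 each), and is named here after its values were seen, as the partner of Hadha. The KI arrays were again the higher pair, with a difference of 0.16 ± 0.14 (SE; adjusted p = 0.556, limma). Leaving out each array in turn left the Hadha difference at 0.25 and called it in no case.

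Promoter sequence was read for the members with the lowest p-values in muscle, Acadl and Hadha, and for the fuel-switch genes Pdk4 and Ucp3, so that the genes compared can be seen. The RefSeq promoter table (GRCm38.p6, 250 bases before to 50 after each start) held 9 of the 10 genes. The 250 bases before the start are printed 5′ to 3′ on the strand of the gene, from chr1:66863310-66863559 (minus strand) for Acadl, chr5:30154981-30155230 (minus) for Hadha, chr6:5496279-5496528 (minus) for Pdk4 and chr7:100472741-100472990 (plus) for Ucp3. Capitals mark GC boxes (GGGCGG, read as CCGCCC on the other strand) in Acadl and Hadha, a CCAAT box (read as ATTGG) in Pdk4 and nuclear receptor core hexamers (AGGTCA) in Ucp3.
Acadl: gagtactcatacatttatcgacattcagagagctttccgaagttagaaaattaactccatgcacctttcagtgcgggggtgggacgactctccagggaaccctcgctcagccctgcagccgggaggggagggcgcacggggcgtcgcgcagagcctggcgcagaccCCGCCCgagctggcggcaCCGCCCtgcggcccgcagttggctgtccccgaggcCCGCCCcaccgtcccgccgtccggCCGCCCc
Hadha: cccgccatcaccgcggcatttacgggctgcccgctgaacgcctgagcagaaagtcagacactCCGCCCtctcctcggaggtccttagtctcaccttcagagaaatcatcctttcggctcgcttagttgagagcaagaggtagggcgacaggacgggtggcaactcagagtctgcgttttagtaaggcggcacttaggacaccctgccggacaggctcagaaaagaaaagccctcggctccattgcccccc
Pdk4: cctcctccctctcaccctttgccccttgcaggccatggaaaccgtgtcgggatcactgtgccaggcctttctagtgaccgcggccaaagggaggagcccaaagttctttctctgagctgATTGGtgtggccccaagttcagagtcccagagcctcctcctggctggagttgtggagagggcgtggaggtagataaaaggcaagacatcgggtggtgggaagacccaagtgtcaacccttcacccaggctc
Ucp3: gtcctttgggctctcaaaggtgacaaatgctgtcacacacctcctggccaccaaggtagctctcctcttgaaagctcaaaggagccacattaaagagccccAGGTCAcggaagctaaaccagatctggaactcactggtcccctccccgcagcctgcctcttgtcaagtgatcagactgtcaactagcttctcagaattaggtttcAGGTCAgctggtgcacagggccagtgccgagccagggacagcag
The 4 GC boxes of Acadl lay within 84 bases before the start, at -84 to -79, -66 to -61, -31 to -26 and -7 to -2. Hadha held 1 GC box at -188 to -183, Pdk4 held 1 CCAAT box at -131 to -127, and Ucp3 held its hexamers at -149 to -144 and -44 to -39. Hadha and Hadhb start 273 bases apart on opposite strands of chromosome 5, and their 300-base windows share 228 bases.

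Both strands of the 300-base windows were searched for exact matches. GC boxes were found in 4 of the 9 members (Cd36, Cpt2, Acadl and Hadha) and in 35.7% of all 32851 promoters of that length. The hexamer AGGTCA was found in 4 of the 9 (Cd36, Acadvl, Acadm and Ucp3), against 16.3% of all promoters, and the CCAAT box in 2 of the 9 (Cd36 and Pdk4), against 37.4%. None of the 9 held the TATA box TATAAA (13.6% of all promoters), a direct repeat of AGGTCA with 1 base between the copies (0.0396%) or the letters TCAAGGTCA (0.423%), which hold AGGTCA within them. A match is a stretch of letters and was not tied to any measured binding.

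The fuel-switch genes Pdk4 and Ucp3 had the widest spread within genotype of the 9 in muscle. Pdk4, the kinase that inhibits pyruvate dehydrogenase when fat is burned, was 10.93 and 10.15 in KI muscle, against 10.61 and 11.15 in WT muscle. Ucp3, the mitochondrial uncoupling protein of skeletal muscle, was 9.09 and 8.40 in KI muscle, against 8.58 and 9.40 in WT muscle. For both genes the arrays ran in the same order, WT 96 highest, then KI 94, WT 95 and KI 97, so each genotype held a high and a low array. The differences were -0.34 ± 0.36 for Pdk4 and -0.24 ± 0.27 for Ucp3 (SE; adjusted p = 0.651 and 0.663, limma). Their intervals, -1.15 to 0.48 and -0.85 to 0.37, leave a wide range of effects in either direction. Without KI muscle array 97 the sign turned, to 0.05 for Pdk4 and 0.10 for Ucp3, and without WT muscle array 96 Ucp3 stood at 0.17.

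Within genotype, the SD of Pdk4 in muscle was 0.474 and that of Ucp3 was 0.536, against a median of 0.117 over the tested genes. Only 0.912% of tested genes spread more than Pdk4 and 0.61% more than Ucp3. The other members spread less than that median in muscle, from an SD of 0.001 for Hadha and 0.027 for Acadm to 0.084 for Fabp3 and 0.113 for Acadvl. The order of the 4 muscle arrays that Pdk4 and Ucp3 shared was found in 348 of the 13933 tested genes (2.5%). Of the other listed genes of the pathway, Prkaa2, a catalytic subunit of AMP-activated protein kinase, and Slc25a27, a brain uncoupling protein, shared it; the order was chosen after the values were seen.

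**Figure D2:**
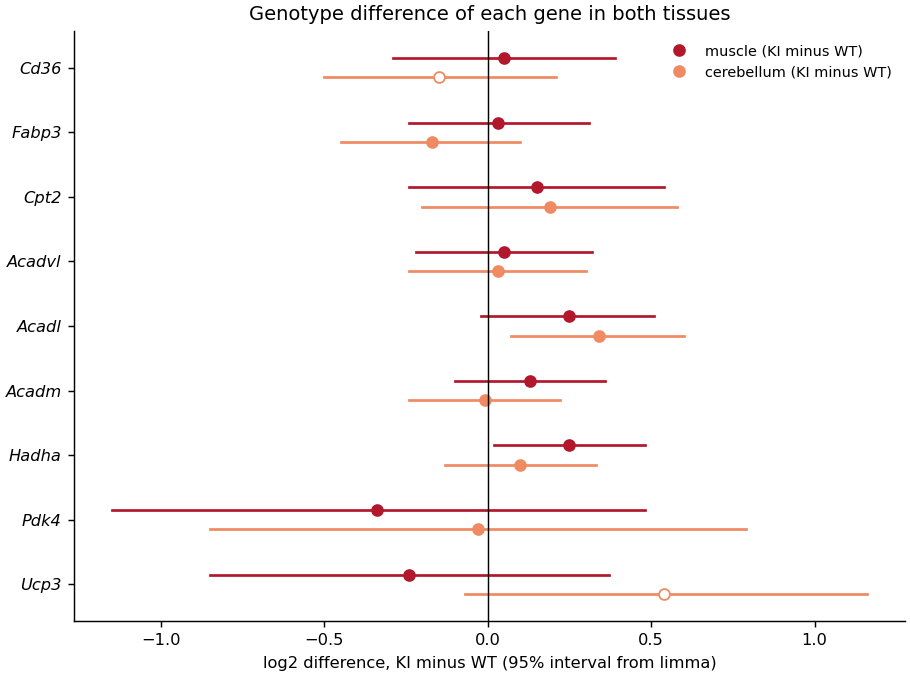
KI minus WT difference (log2) of each member in muscle and in cerebellum; points are limma estimates, lines their 95% intervals, and open points come from the fit with no filter. In muscle, the intervals of 8 of the 9 genes include 0 and that of Hadha lies just above it, and Pdk4 and Ucp3 have the widest; in the cerebellum the interval of Acadl lies above 0.

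In the cerebellum the same comparison was made between KI and WT. Of the 9 genes, 7 were tested there, since Cd36 and Ucp3 fell below the 40th percentile of their arrays. None of the 7 was called, where 0.205% of the 13641 tested genes were (limma). Acadl had an unadjusted p under 0.05, against 5.33% of all tested genes. Its level was 6.97 and 6.74 in KI cerebellum, against 6.48 and 6.56 in WT cerebellum. Both KI arrays were the higher, as in muscle, with a difference of 0.34 ± 0.12 (SE; interval 0.07 to 0.60; adjusted p = 0.76, limma). It was the only one of the 7 whose KI arrays both lay above the WT arrays, against 15.3% of all tested genes. The median difference of the 7 was 0.03, against -0.01 over all tested genes, and 4 of the 7 were above 0, against 47.5%.

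The other dehydrogenases were close between the genotypes of the cerebellum. Acadm was 8.08 and 7.95 in KI cerebellum, against 8.02 on both WT arrays, and differed by -0.01 ± 0.10 (SE; adjusted p = 1, limma). Acadvl was 6.44 and 6.55 in KI cerebellum, against 6.38 and 6.55 in WT cerebellum, and differed by 0.03 ± 0.12 (SE). Hadha was 8.30 and 8.18 in KI cerebellum, against 8.10 and 8.18 in WT cerebellum, with a difference of 0.10 ± 0.10 (SE; adjusted p = 0.998, limma). In these genes the genotypes overlapped or met.

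Fabp3 was 7.40 and 7.18 in KI cerebellum, against 7.38 and 7.54 in WT cerebellum (difference -0.17 ± 0.12, SE; adjusted p = 0.998, limma). Cpt2 was 6.90 and 6.45 in KI cerebellum, against 6.29 and 6.69 in WT cerebellum, so its groups overlapped, and 3.23% of tested genes had a larger SD than its 0.305. Pdk4 was 6.80 and 5.74 in KI cerebellum, against 6.05 and 6.55 in WT cerebellum, and its SD of 0.586 was exceeded by 0.183% of tested genes. Pdk4 therefore spread within genotype in both tissues, and its cerebellum difference was -0.03 ± 0.36 (SE; adjusted p = 1, limma). In both tissues arrays 94 and 96 lay above arrays 95 and 97 for Pdk4, a pattern seen in 216 of 12866 genes tested in both tissues (1.68%), which was looked for after the values were seen.

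Cd36 was 3.73 and 3.34 in KI cerebellum, against 3.55 and 3.82 in WT cerebellum, and Ucp3 was 4.92 and 4.80 in KI cerebellum, against 4.36 and 4.27 in WT cerebellum. Array percentiles there were 4.97 to 5.05, so both genes lay under the level at which a gene was tested. In a fit with no filter on low values Ucp3 differed by 0.54 ± 0.27 (SE; interval -0.07 to 1.16; adjusted p = 1, limma) with no overlap of the genotypes, and Cd36 by -0.15 ± 0.16.

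The second comparison set muscle against cerebellum, to see where the genes are used. The 7 members above the filter in both tissues were all called as higher in muscle, at an adjusted p under 0.05 and at least 2-fold, where 10.2% of the 12866 genes above the filter in both were. For each of these 7 every muscle array lay above every cerebellum array, against 30.8% of those genes. Their median difference was 2.54 on the log2 scale, against 0.02 over those genes. Cd36 and Ucp3 entered the test through muscle alone and are given apart, as bounds. In bulk tissue, fewer cells of a type and less RNA per cell cannot be told apart.

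**Figure D3:**
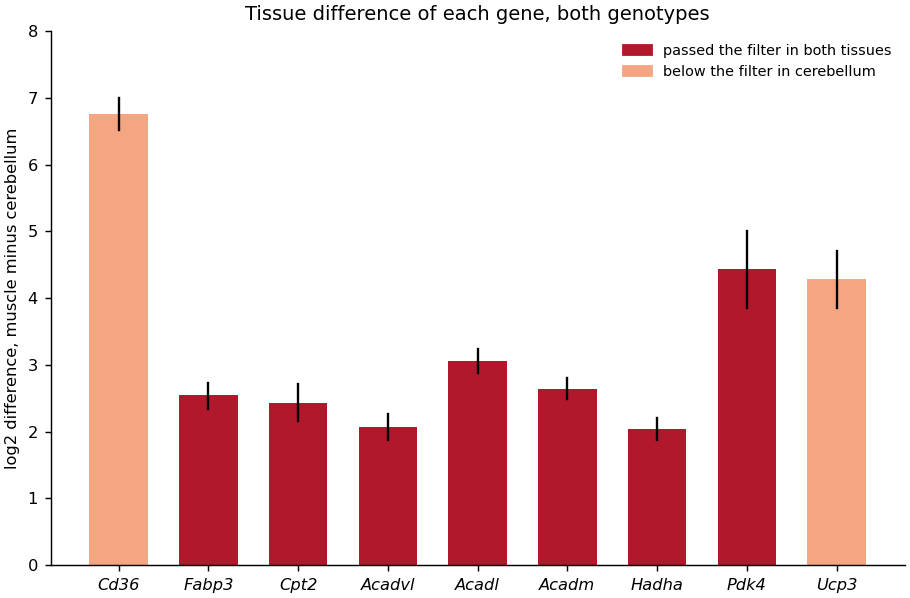
Muscle minus cerebellum difference (log2) of each member; bar heights are limma estimates over the 4 muscle and 4 cerebellum arrays, vertical lines their 95% intervals, and pale bars mark Cd36 and Ucp3, below the filter in cerebellum. The 7 dark bars lie between 2.04 for Hadha and 4.43 for Pdk4, and the pale bars are measured against background-level values.

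Cd36 was 10.34 to 10.46 in muscle, against 3.34 to 3.82 in cerebellum, where it lay below the 40th percentile of every array. Set against that percentile, it was at least 41.2-fold higher in muscle. Ucp3, at 8.40 to 9.40 in muscle and 4.27 to 4.92 in cerebellum, was at least 14.5-fold higher in the same way. The adjusted p-values of Cd36 and Ucp3 (6.01e-11 and 2.84e-08, limma) belong to the measured differences, against background-level cerebellum values. The bounds themselves were not tested. Pdk4 was above the filter in both tissues and 21.5-fold higher in muscle, by 4.43 ± 0.26 (SE, n = 4 per tissue; adjusted p = 1.85e-07, limma).

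The enzymes of the spiral lay closer together in their tissue gap. Acadl was 8.31-fold higher in muscle, by 3.05 ± 0.08, Acadm 6.23-fold, by 2.64 ± 0.07, and Acadvl 4.19-fold, by 2.07 ± 0.09 (adjusted p = 1.02e-09, 1.12e-09 and 1.66e-08, limma). Hadha had the smallest gap, 4.12-fold, by 2.04 ± 0.07, and Cpt2 had 5.39-fold, by 2.43 ± 0.12 (adjusted p = 6.51e-09 and 6.59e-08, limma). Fabp3 was 5.80-fold higher in muscle, by 2.54 ± 0.09 (adjusted p = 4.63e-09, limma), and its other probe set gave 2.42. In the cerebellum Acadm, Hadha and Fabp3 stayed well above the tested level, at 7.18 to 8.30 over the 3 genes.

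The third comparison asked whether the genotype difference itself differs between the tissues, as muscle difference minus cerebellum difference. None of the 9 was called, where 0.143% of 14708 genes were (limma), and none had an unadjusted p under 0.05, against 13.8% of all. The widest were Ucp3, at -0.78 ± 0.38 (SE; adjusted p = 0.396), which rests on cerebellum levels below the tested one, and Pdk4, at -0.31 (adjusted p = 0.814). Fabp3 was at 0.21, Cd36, with the same limit in the cerebellum, at 0.20, Hadha at 0.15, Acadm at 0.13, Acadvl at 0.02, Cpt2 at -0.04 and Acadl at -0.09, with adjusted p-values of 0.61 to 0.96. The interval for Acadl, whose KI arrays were the higher pair in each tissue, was -0.46 to 0.28.

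The members were then set among 91 other listed genes of the route, from lipoprotein lipase to the regulators of oxidation, of which 85 had a probe set of their own. The lists were chosen with earlier results of these data known, so their shares of called genes, here and below, describe them and test nothing. In muscle 82 of the 85 genes were tested and 9 were called, 7 higher and 2 lower in KI. That is 11.0%, against 3.55% of all tested genes (2.66% higher and 0.890% lower). Of the 7, Pdk3 and Pdp2 each had a WT muscle array below the 40th percentile of that array. The median difference of the 82 was 0.07, against 0.03 over all tested genes. In the cerebellum 80 were tested and none was called (limma), where 0.205% of all tested genes were. Of these 80 differences 54 were above 0, against 47.5%, and the median was 0.05, against -0.01.

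**Figure D4:**
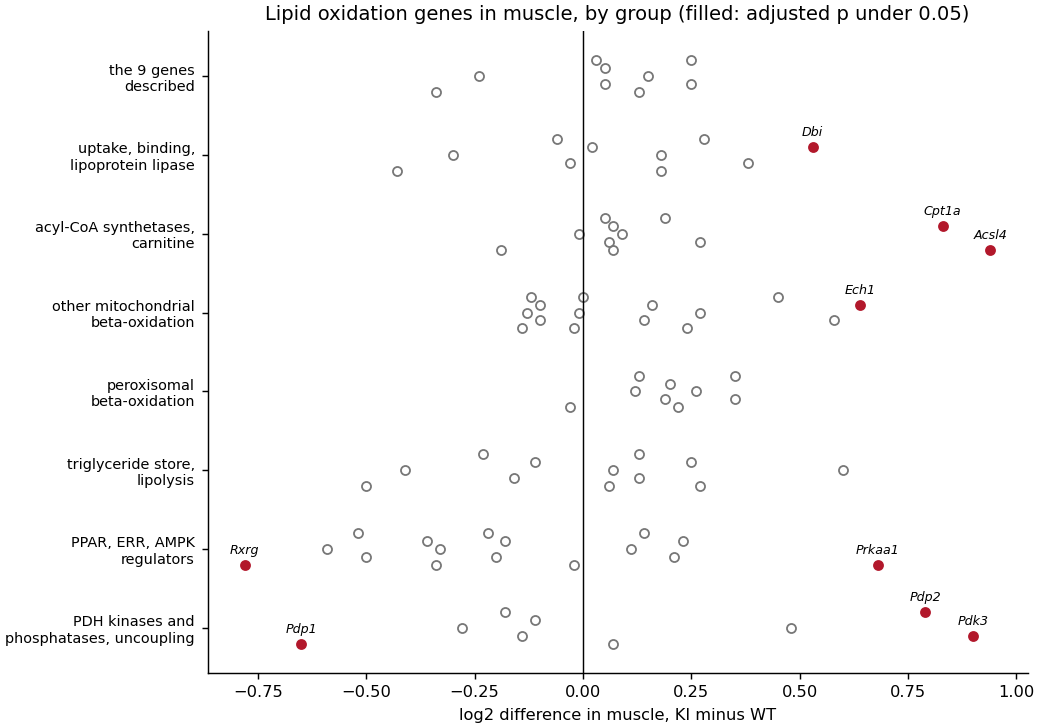
KI minus WT difference in muscle (log2) of the 9 members (top) and of each listed gene of the route, arranged by list; points are limma estimates and filled points are called. The 9 called genes are Acsl4, Cpt1a, Dbi, Ech1, Pdk3, Pdp2 and Prkaa1 above 0 and Rxrg and Pdp1 below 0, while no member is called.

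The activation and carnitine list held 2 called genes of 11 tested, against 3.55% of all tested genes. Of the 11 differences 9 were above 0, against 55.0%. Acsl4, an acyl-CoA synthetase that prefers arachidonate, was 9.07 and 8.83 in KI muscle, against 8.05 and 7.97 in WT muscle. Its KI arrays stood clear of the WT arrays, 1.92-fold higher (0.94 ± 0.12, SE; adjusted p = 0.00576, limma). Cpt1a, the outer-membrane carnitine palmitoyltransferase of liver and most other tissues, was 7.73 and 7.20 in KI muscle, against 6.49 and 6.79 in WT muscle. It was 1.77-fold higher (0.83 ± 0.17, SE; adjusted p = 0.0369, limma), whereas its muscle counterpart Cpt1b has no value here. In the uptake list, 1 of 10 tested genes was called, against 3.55% of all tested genes. This was Dbi, the acyl-CoA binding protein, at 10.35 and 10.30 in KI muscle, against 9.78 and 9.81 in WT muscle. Dbi was 1.45-fold higher (0.53 ± 0.10, SE; adjusted p = 0.0258, limma).

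Of 15 other mitochondrial beta-oxidation enzymes 1 was called, against 3.55% of all tested genes, and their median difference was -0.00, against 0.03. Ech1, an isomerase for unsaturated fatty acids, was 10.07 and 10.05 in KI muscle, against 9.51 and 9.32 in WT muscle, 1.56-fold higher (0.64 ± 0.14, SE; adjusted p = 0.0384, limma). The peroxisomal list had none called of 9 tested (limma; 3 had an unadjusted p under 0.05, against 20.3% of all tested genes). Of the 9 differences, 8 were above 0, against 55.0% of all tested genes, and the median was 0.20, against 0.03. Acox3, an acyl-CoA oxidase, and Hsd17b4, the peroxisomal multifunctional enzyme, each differed by 0.35 (adjusted p = 0.102 and 0.112, limma). None of 12 tested genes of triglyceride storage was called (limma), and 4 had an unadjusted p under 0.05, against 20.3% of all tested genes. The nearest was Plin2, a lipid droplet coat protein, at 0.60 (adjusted p = 0.0762, limma). After it came Lpin1 at -0.41 and Plin4 at -0.50, both lower in KI (adjusted p = 0.138 and 0.194, limma). Of these 12 differences 7 were above 0, against 55.0% of all tested genes.

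Among 16 tested regulators 1 was called higher and 1 lower (2.66% and 0.890% of all tested genes), and the median difference was -0.21, against 0.03. An unadjusted p under 0.05 was found in 7 of the 16, against 20.3% of all tested genes. In 8 of the 16 the KI arrays lay below the WT arrays with no overlap, against 19.9%, and in 5 above, against 30.3%. Rxrg, a retinoid X receptor that pairs with the PPAR receptors, was 8.27 and 8.22 in KI muscle, against 9.04 and 9.01 in WT muscle. It fell 1.72-fold (-0.78 ± 0.10, SE; adjusted p = 0.00704, limma), with tight replicates. Prkaa1, a catalytic subunit of AMP-activated protein kinase, was 8.96 and 8.78 in KI muscle, against 8.19 and 8.18 in WT muscle, 1.61-fold higher (0.68 ± 0.13, SE; adjusted p = 0.0292, limma).

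The relatives of Pdk4 and Ucp3 held 3 called genes of 9 tested, against 3.55% of all tested genes. An unadjusted p under 0.05 was found in 5 of the 9, against 20.3%. Pdk3, a kinase that inhibits pyruvate dehydrogenase as Pdk4 does, was 5.98 and 5.72 in KI muscle, against 4.85 and 5.05 in WT muscle, 1.87-fold higher (0.90 ± 0.14, SE; adjusted p = 0.0126, limma). Its WT levels lay close to the 40th percentile of those arrays. Pdp2 and Pdp1, the phosphatases that reactivate pyruvate dehydrogenase, moved in opposite directions. Pdp2 was 5.87 and 5.85 in KI muscle, against 5.34 and 4.80 in WT muscle, 1.73-fold higher (0.79 ± 0.16, SE; adjusted p = 0.0337, limma). Pdp1 was 8.86 and 9.25 in KI muscle, against 9.63 and 9.79 in WT muscle, 1.57-fold lower (-0.65 ± 0.14, SE; adjusted p = 0.0393, limma).

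Of the 9 called genes, 7 lost their call in some settings, both with 1 array left out and under others. The Dbi difference still stayed at 0.51 to 0.56 with any 1 array left out. Acsl4 and Rxrg were called in all 16 alternative settings. Without KI muscle array 94 only these 2 listed genes remained called, with Pdk3 at an adjusted p of 0.065 and Cpt1a at 0.146 (limma). Leaving out 1 of 8 arrays ended the call of Pdk3 in 2 cases (KI muscle 94 and WT muscle 95), and of Dbi, Prkaa1 and Ech1 in 6 cases each. It ended the call of Cpt1a, Pdp1 and Pdp2 in 7 cases each, and the adjusted p-values then reached 0.202 for Cpt1a. Dbi and Prkaa1 kept their call only without a KI cerebellum array, Ech1 only without a WT cerebellum array, Cpt1a and Pdp1 only without KI muscle 97, and Pdp2 only without WT muscle 95. Of the difference between tissues, none of 84 listed genes was called (limma), the nearest being Rxrg at -0.90 (adjusted p = 0.0599), Acsl4 at 0.89 (0.0838) and Pdk3 at 0.92 (0.106). Rxrg was 4.98 and 4.96 in KI cerebellum, against 4.92 and 4.78 in WT cerebellum, so that it lay under the tested level there.

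In the cerebellum the nearest listed genes were Pparg, the fat-cell PPAR receptor, at -0.32 (adjusted p = 0.76), Dgat2, the last enzyme of triglyceride synthesis, at 0.43 (adjusted p = 0.857), and Cav1, a caveolar protein, at 0.26 (adjusted p = 0.953, limma).

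Between the tissues, 78 listed genes were above the filter in both, and 41 were called (52.6%, against 23.3% of the 12866 genes), 36 higher and 5 lower in muscle. Of the 15 other mitochondrial enzymes 14 were called higher in muscle. They ran from 1.29 for Acadsb to 2.70 for Hadh, a hydroxyacyl-CoA dehydrogenase, and also held Acads, Hadhb, Echs1, Eci1, Eci2, Decr1, Ech1, Etfa, Etfb, Etfdh, Acot2 and Acot13. Acad9, the 1 not called and named for that after its values were seen, had 0.27. No peroxisomal gene of 9 reached 2-fold with its adjusted p.

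The other genes called higher in muscle were Gpihbp1 and Cav1 of the uptake list, Slc25a20, Crat, Acacb and Mlycd of the carnitine list, Pnpla2, Abhd5, Plin2, Plin4, Dgat2 and Lpin1 of the triglyceride list, Ppara, Rxra, Prkaa2, Prkag3 and Foxo1 of the regulators, and Pdk1, Pdk2, Pdha1, Pdhb and Dlat around pyruvate dehydrogenase. Slc25a20, the carnitine-acylcarnitine carrier, differed by 2.44 and Acacb, the enzyme whose product malonyl-CoA inhibits carnitine palmitoyltransferase, by 3.29. Foxo1, at 1.01, lay so near the 2-fold limit that leaving out KI muscle array 94 brought it to 0.85. Higher in cerebellum were Pdk3 (-2.43), Cpt1c, the brain form of Cpt1 (-1.98), Acsl6, a synthetase of brain (-1.80), Slc25a27 (-1.03) and Slc27a4, a fatty acid transport protein (-1.02). Slc25a27 and Slc27a4 also fell inside the 2-fold limit under other settings, at -0.90 each when quantile normalisation was repeated.

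Another 5 called genes were below the filter in a tissue, so that a bound alone is given. Lpl, the lipase that frees fatty acids from lipoproteins, was at least 22.1-fold higher in muscle, Fabp4 at least 14.6-fold and Rxrg at least 12.4-fold. Fabp7, the fatty acid binding protein of radial glia, was at least 34.8-fold higher in cerebellum, and Slc25a14, a brain uncoupling protein, at least 2.11-fold.

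Marker lists of fibre types and other cell types were summed in muscle. The summed level of 9 fast-fibre genes was 23129 to 24504 in KI muscle, against 32159 to 34883 in WT muscle. Of these, 9 of 9 lay below without overlap, against 19.9% of all tested genes, and 3 were called lower, against 0.890%. The 8 slow-fibre genes summed to 1103 to 1483 in KI muscle, against 1004 to 1662 in WT muscle, and overlapped. Of these 8, Myl3, a slow myosin light chain, alone was called lower, against 0.890% of all tested genes. It was 5.11-fold lower (-2.35, adjusted p = 0.00638, limma), while Myoz2 had a difference of 0.70 and did not pass. The sum of 6 adipocyte genes on the array was 616 to 652 in KI muscle, against 770 to 779 in WT muscle. Fabp4 made up 405 to 438 of it in KI muscle, against 482 to 562 in WT muscle, and did not pass (adjusted p = 0.223, limma). Of 5 tested, Retn alone was called lower, against 0.890% of all tested genes. The 10 macrophage genes summed to 850 to 943 in KI muscle, against 724 to 734 in WT muscle. None of 9 tested was called (limma), where 3.55% of all tested genes were, and 4 had an unadjusted p under 0.05, against 20.3%. Of these 9 differences 8 were above 0, against 55.0%. In 6 of the 9 the KI arrays lay above the WT arrays without overlap, against 30.3%. The 8 endothelial genes (Cd36 is also an endothelial transporter) summed to 1477 to 1756 in KI muscle, against 1522 to 1773 in WT muscle, and overlapped. The part of these shifts in the differences of Acsl4, Rxrg and the other listed genes was not tested. Cerebellar neuron genes were also lower in KI cerebellum in sum, as given above. None of 8 was called (limma), where 0.205% of all genes tested in cerebellum were. All 8 differences were below 0, where 47.5% of all tested genes were above 0, and their median was -0.30, against -0.01. An unadjusted p under 0.05 was found in 3 of the 8, against 5.33%.

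The 3 genes outside the lists whose level over the 8 arrays ran closest to the mean of the members were Mypn, a sarcomeric protein (r = 0.9995), Itm2a, a membrane protein (r = 0.9994), and Gsn, an actin-severing protein (r = 0.9993). Mypn was 9.22 and 9.17 in KI muscle, against 9.09 and 9.11 in WT muscle, and 3.60 to 3.99 in the cerebellum arrays. These values are a description over 8 arrays of 2 tissues, in which the tissue gap makes up nearly all of the likeness.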

How the data were processed

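Total RNA was measured on 8 Affymetrix arrays. The authors deposited a table of log2 levels, with 1 value for each probe set on each array. Per the submitters' processing notes it came from GCOS and RMA, which subtracts background, quantile-normalises and combines the probes of a set. Versions, filters, the build and the set of arrays normalised together were not given in the sources used here. Log2 values carry no counts, so the number of arrays limits the precision.

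Of the 35556 probe sets, 21789 carried 1 gene symbol in the platform annotation, 1621 several and 12146 none. The brightest probe set per gene by mean over 8 arrays was used. Genes entered the test of a tissue if 2 or more of its 4 arrays reached the 40th percentile of that array, which kept 13933 genes in muscle, 13641 in cerebellum and 14708 in either. limma 3.58.1 (R 4.3.3) fitted 4 group means to all 8 arrays, with 4 residual degrees of freedom per gene, lmFit and eBayes, and Benjamini-Hochberg adjustment. Tissue calls also needed 2-fold, and a gene below the filter in 1 tissue was given as a bound against the higher of its level and the 40th percentile on each array there. Intervals cover 95%. Members below the filter were fitted without it.

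Groups came from the sample titles and tissue labels. Nothing in the labels says that arrays came from separate animals, so the p-values measure the spread between these samples, which may be technical. Array numbers repeat across tissues, but no label says that they mark animals, so they were not used to pair samples. Deviations of same-numbered arrays correlated at 0.06 in KI and -0.10 in WT, which cannot settle whether such arrays share an animal. Promoters came from RefSeq (GRCm38.p6). Marker levels were summed on the linear scale.

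The text names Tbp, every member, the called genes of each pathway list or else up to 3 with the smallest unadjusted p, at most 2 genes per marker list, and the 3 genes closest to the mean of the members. The members and lists were chosen with earlier results of these data known. Alternatives were other probe set rules, filters, normalisations and variance settings, a fit per tissue, a replicate block and leaving out each array.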

Additional observations from a re-analysis of the deposited data

How the results depend on the processing

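With 2 arrays per group, intervals of the members reach from -1.15 to 0.54 in muscle, and differences inside such intervals could not be resolved. No setting changed the call of a member: 0 were called in muscle, 0 in cerebellum, 9 for muscle against cerebellum (Cd36 and Ucp3 against background-level values) and 0 for the muscle effect minus the cerebellum effect. Counts over all genes moved more. In muscle 495 genes were called. All probe sets tested singly gave 69 called probe sets, the tissue alone gave 155 genes, no filter 246, leaving out 1 array 108 to 393, and the other settings 376 to 706. In cerebellum 28 were called, against 6 with all probe sets, 18 with no filter and 3 to 29 with 1 array left out. The muscle effect minus the cerebellum effect (21) had 0 with all probe sets, 3 with no filter, 38 with a stricter filter, 63 with trended and robust variances, and 0 to 16 with 1 array left out. Pathway genes called in muscle (9) numbered 2 with all probe sets, 3 with the tissue alone, 3 with no filter and 2 to 6 with 1 array left out. For the difference of effects they numbered 1 with a stricter filter and 2 with trended variances. The replicate block gave 3823 genes for muscle against cerebellum and 14 for the difference of effects and changed no member's call.

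Of 36 member differences, 22 never changed sign, and these included all 9 of muscle minus cerebellum. The sign changes thus all fell among the genotype differences and the muscle effects minus the cerebellum effects. Repeating quantile normalisation gave 0.03 for Acadm in cerebellum, -0.02 for Acadvl in muscle and -0.07 for the muscle effect minus the cerebellum effect of Acadvl, and median centring gave 0.02 for that of Cpt2. With 1 array left out, where a lone array is assumed to vary like the other groups, the muscle differences ran from -0.06 to 0.16 for Acadvl, -0.01 to 0.11 for Cd36, -0.05 to 0.11 for Fabp3, -0.73 to 0.05 for Pdk4 and -0.65 to 0.17 for Ucp3. In cerebellum they ran from -0.07 to 0.05 for Acadm, -0.06 to 0.11 for Acadvl, -0.34 to 0.05 for Cd36, -0.04 to 0.42 for Cpt2 and -0.56 to 0.50 for Pdk4. The muscle effects minus the cerebellum effects ran from -0.21 to 0.03 for Acadl, -0.08 to 0.13 for Acadvl, -0.26 to 0.19 for Cpt2 and -0.84 to 0.22 for Pdk4. The cause was not tested.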

Other observations

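Acot2, a mitochondrial acyl-CoA thioesterase, was 10.17 and 9.32 in KI muscle, against 9.29 on both WT muscle arrays, so that only KI array 94 stood apart. Angptl4, a secreted inhibitor of lipoprotein lipase, showed the same array as the high one, at 6.02 and 5.38 in KI muscle, against 5.28 and 5.37 in WT muscle. Both genes were singled out after their values were seen. Acot2 differed by 0.45 over the 4 muscle arrays (adjusted p = 0.294, limma) by 0.88 without KI muscle array 97 (adjusted p = 0.0294) and by 0.03 without KI muscle array 94 (adjusted p = 0.952).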
